A study of Homo sapiens with 8 samples.

Results

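Genes that charge tRNAs with amino acids, make amino acids or carry them across the plasma membrane were followed in 2 human ovarian carcinoma cell lines, SKOV3 and OVCAR5, that had been given lovastatin or its solvent. The list held 39 genes, taken by gene symbol from the annotation of the array, older synthetase symbols without the final 1 included: 19 cytosolic aminoacyl-tRNA synthetases, 7 enzymes of asparagine, serine, glycine and one-carbon metabolism, 4 enzymes of proline synthesis and transsulfuration, and 9 amino acid transporters. Of the 47323 probes of the array, 55 carried one of these symbols and together stood for 38 genes; CARS1, the cysteinyl-tRNA synthetase, had no probe with its name and its expression was not analysed here. SLC6A9, a glycine transporter, had 3 probes and none was detected on any of the 8 arrays. The other 37 genes passed the filter on dim probes and were tested among 11218 genes. The 39 genes, like the further lists below, were chosen with earlier results of these data known. Their shares beside all tested genes describe the lists and are no independent support.

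Both lines were grown in RPMI medium with serum and treated for 48 h with 10 µM lovastatin, an inhibitor of HMG-CoA reductase, which makes mevalonate, or with DMSO. Each of the 4 groups (SKOV3 DMSO, SKOV3 lovastatin, OVCAR5 DMSO and OVCAR5 lovastatin) held 2 Illumina beadchip arrays, and the number of arrays limits the precision. Whether replicate arrays stem from separate cultures is not stated in the labels, so p-values measure the spread between these arrays, which may be technical. Values are normalized log2 intensities of the brightest kept probe of a gene; they rank the arrays for one gene and do not rank genes against each other. Changes are log2 fold changes with limma's standard error of the treated minus the DMSO group (n = 2 arrays each), and a gene was called changed at a Benjamini-Hochberg adjusted p under 0.05 over all tested genes.

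Between 15370 and 17231 probes were detected per array, and between 35 and 37 of the 37 tested genes. Replicate arrays differed over these genes with an SD of 0.169 log2 units in SKOV3 DMSO, 0.24 in SKOV3 lovastatin, 0.112 in OVCAR5 DMSO and 0.135 in OVCAR5 lovastatin. The widest gap within a group was 0.528, for SLC38A2 in SKOV3 DMSO. Of the markers of carcinoma epithelium, EPCAM, KRT8, KRT18 and PAX8 were detected on every array, KRT19 was detected on the SKOV3 arrays and on no OVCAR5 array, and CDH1 did not pass the filter. Of 11 markers of leukocytes, fibroblasts and endothelium, 3 passed the filter: CD14, detected in OVCAR5 alone, and COL1A1 and DCN, detected in SKOV3 alone; PTPRC, PDGFRB and PECAM1 did not pass. Their part in the results was not tested. In these bulk samples fewer cells of a kind and less RNA per cell cannot be told apart.

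Aminoacyl-tRNA synthetases join each amino acid to its tRNA. When an amino acid runs short, uncharged tRNA activates the kinase GCN2, which phosphorylates the initiation factor eIF2 alpha, lowers general translation and raises translation of the transcription factor ATF4. ATF4 with C/EBP family partners binds composite C/EBP-ATF response elements, also called amino acid response elements, in genes of amino acid synthesis, uptake and tRNA charging. Other kinases that phosphorylate eIF2 alpha, such as PERK in stress of the endoplasmic reticulum, feed into the same factor.

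The core of that element was searched for as the letters TGATGNAA on both strands of RefSeq promoter windows (GRCh38.p14) that run from 250 bases before to 50 bases after a listed transcription start; no other motif was searched. A window was found for 32 of the 39 genes, and 13 of them (40.6%) held a match. Among all 27305 genes with a promoter entry, 1217 (4.46%) held one, and of the tested genes with a window 240 of 9056 (2.65%). A gene with several listed starts was counted once, and a match describes letters only. The list was drawn up as the metabolic arm of the amino acid response, and the element is described in genes of that response. A share above that of all genes could thus be foreseen from how list and motif were chosen and is no independent support. By role, a match was present in 7 of 16 synthetases, 5 of 8 transporters, 1 of 5 enzymes of asparagine, serine, glycine and one-carbon metabolism, and 0 of 3 enzymes of proline synthesis and transsulfuration. Shown are 7 windows of genes that rose under lovastatin in SKOV3 and then 2 of genes that were not called there, each 5′ to 3′ on the strand that reads the match, with the match in capitals:
ASNS: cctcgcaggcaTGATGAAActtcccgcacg
AARS1: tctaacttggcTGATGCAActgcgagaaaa
GARS1: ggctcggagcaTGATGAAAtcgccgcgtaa
MARS1: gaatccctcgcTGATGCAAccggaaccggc
SLC1A4: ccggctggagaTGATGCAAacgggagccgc
SLC1A5: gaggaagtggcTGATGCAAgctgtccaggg
SLC38A1: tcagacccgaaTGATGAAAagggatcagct
NARS1: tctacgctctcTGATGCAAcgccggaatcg
SLC7A1: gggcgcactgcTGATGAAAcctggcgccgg

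These windows lie in GRCh38.p14 at chr7:97872458-97872487 (ASNS, minus strand), chr16:70289675-70289704 (AARS1, plus), chr7:30594834-30594863 (GARS1, minus), chr12:57488053-57488082 (MARS1, minus), chr2:64989381-64989410 (SLC1A4, minus), chr19:46784893-46784922 (SLC1A5, minus), chr12:46266502-46266531 (SLC38A1, minus), chr18:57621804-57621833 (NARS1, minus) and chr13:29595663-29595692 (SLC7A1, minus). Counted from a listed start at 0, the ASNS match spans -68 to -61, the stretch long described in this promoter as its nutrient-sensing response element. The AARS1 match lies farther upstream at -187 to -180 and that of SLC1A5 at -97 to -90, while those of SLC1A4 (-7 to 0), MARS1 and SLC38A1 (both -4 to 3) sit at the start. Across the 13 genes the match read TGATGCAA in 8, TGATGAAA in 4 and TGATGTAA in 1. The other 4 genes with a match were CARS1, IARS1, TARS1 and SLC3A2.

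The first comparison asked how these genes changed under lovastatin in SKOV3. Of the 37 genes, 22 rose and 7 fell, so that 78.4% were called against 50.5% of all tested genes; 59.5% were called higher against 26.6% of all genes, and 18.9% lower against 23.9%. The median change was 0.73 on the log2 scale, with a range from -1.25 to 3.57, against a median of 0.026 over all genes. Of the 37 genes 15 were called with a rise and 1 with a fall of at least 2-fold, beside 1094 and 953 of all 11218 tested genes. CBS, CTH, ASNS, PHGDH, SLC38A2 and WARS1, which serve transsulfuration, asparagine and serine synthesis, glutamine uptake and tRNA charging, changed most. Both lovastatin arrays lay above both DMSO arrays for 23 genes and below them for 10, and the arrays of the groups overlapped for 4; of all tested genes 73.2% did not overlap.

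**Figure D1:**
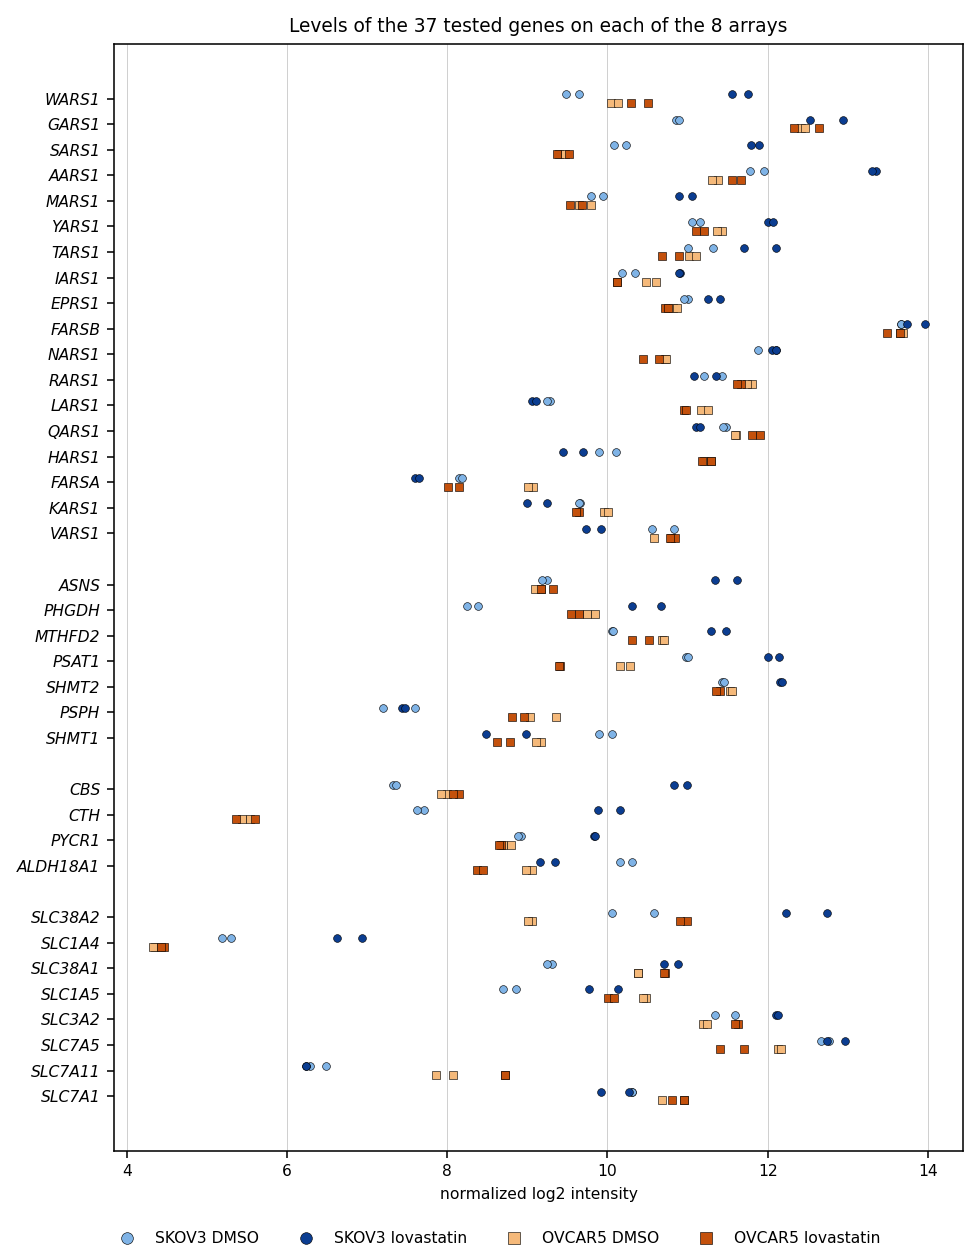
Normalized log2 intensity (x axis) of the 37 tested genes (y axis, ordered by role and by the change in SKOV3) on each of the 8 arrays, with circles for SKOV3 and squares for OVCAR5, pale for DMSO and dark for lovastatin. In SKOV3 the dark circles lie to the right of the pale ones for 23 genes, and in OVCAR5 the dark squares lie to the right for 9; positions are not comparable between genes.

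Among the 18 tested synthetases 9 rose and 5 fell in SKOV3 (median 0.27, range -0.86 to 2.10). Called higher were 50% against 26.6% of all genes, and lower 27.8% against 23.9%, near the share of all genes. WARS1, the tryptophanyl-tRNA synthetase, read 9.65 and 9.48 in SKOV3 DMSO and 11.76 and 11.56 under lovastatin. Both treated arrays were far above both controls, a rise of 2.10 ± 0.14 or 4.29-fold (adjusted p = 9.7e-06). A second WARS1 probe rose by 2.45 ± 0.12. GARS1, which charges glycine in cytosol and mitochondria, went from 10.85 and 10.89 to 12.94 and 12.53, a rise of 1.86 ± 0.17 (adjusted p = 4.7e-05). SARS1, the seryl enzyme, went from 10.23 and 10.08 to 11.89 and 11.79, a rise of 1.69 ± 0.12 (adjusted p = 1.6e-05). AARS1, the alanyl enzyme, went from 11.96 and 11.78 to 13.35 and 13.30, a rise of 1.45 ± 0.12 (adjusted p = 3.2e-05). In each of these 4 genes the gap between the groups was wider than any gap between arrays of one group.

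The methionyl enzyme MARS1 rose by 1.09 ± 0.13, the tyrosyl enzyme YARS1 by 0.93 ± 0.12, the threonyl enzyme TARS1 by 0.74 ± 0.17 and the isoleucyl enzyme IARS1 by 0.64 ± 0.12. EPRS1, which charges both glutamate and proline, rose by 0.36 ± 0.12 (adjusted p = 0.032). The valyl enzyme VARS1 fell most among the synthetases, at -0.86 ± 0.15 or 1.82-fold lower (adjusted p = 0.0015). The lysyl enzyme KARS1 (-0.54 ± 0.12), the catalytic phenylalanyl subunit FARSA (-0.53 ± 0.12), the histidyl enzyme HARS1 (-0.42 ± 0.14) and the glutaminyl enzyme QARS1 (-0.33 ± 0.11) fell less. FARSB, the partner subunit of FARSA, changed by 0.18 ± 0.13, and the leucyl, asparaginyl and arginyl enzymes LARS1, NARS1 and RARS1 changed by between -0.17 and 0.09; none of these 4 was called. The calls of EPRS1, HARS1 and QARS1 were each lost under 7 or more of 17 alternative settings (adjusted p up to 0.17, 0.18 and 0.13), and that of TARS1 was lost without SKOV3 DMSO replicate 2 (0.59, adjusted p = 0.064).

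Of the 7 enzymes of asparagine, serine, glycine and one-carbon metabolism, 5 rose, 1 fell and 1 was not called (median 1.08). Called higher were 71.4% against 26.6% of all genes, and lower 14.3% against 23.9%. ASNS, asparagine synthetase, at chr7:97851677-97928441, read 9.24 and 9.18 in DMSO and 11.34 and 11.62 under lovastatin. Both treated arrays exceeded both controls by more than 2 units, a rise of 2.27 ± 0.13 or 4.82-fold (adjusted p = 6.1e-06), and its second probe rose by 2.03 ± 0.19. PHGDH, which opens serine synthesis from a glycolytic intermediate, read 8.25 and 8.38 in DMSO and 10.30 and 10.67 under lovastatin, 4.50-fold higher (2.17 ± 0.15, adjusted p = 1.2e-05). PSAT1, the aminotransferase of the next step, rose by 1.08 ± 0.12, and PSPH, the phosphatase of the last step, changed by 0.06 ± 0.17 (adjusted p = 0.80). The serine pathway was therefore called at its first and middle enzymes and not at its last.

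The 2 serine hydroxymethyltransferases, which pass a carbon from serine to folate and yield glycine, moved in opposite directions in SKOV3. SHMT2, the mitochondrial enzyme, rose by 0.73 ± 0.11 (adjusted p = 7.6e-04). SHMT1, the cytosolic one, read 10.06 and 9.89 in DMSO and 8.48 and 8.98 under lovastatin, 2.38-fold lower (-1.25 ± 0.17, adjusted p = 5.2e-04). Its other 2 kept probes, dimmer and not detected on every array, were also lower, by -0.89 ± 0.23 and by -0.59 ± 0.23, the latter not called (adjusted p = 0.062 over all kept probes). MTHFD2, the mitochondrial folate enzyme downstream of SHMT2, read 10.05 and 10.07 in DMSO and 11.29 and 11.48 under lovastatin. Its treated arrays were 2.50-fold above the controls (1.32 ± 0.13, adjusted p = 7.6e-05).

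CBS, cystathionine beta-synthase, which joins homocysteine and serine, had the largest change of all 37 genes. It read 7.32 and 7.36 in SKOV3 DMSO and 10.83 and 10.99 under lovastatin, 11.9-fold higher (3.57 ± 0.12, adjusted p = 7.0e-07). The gene lies at chr21:43053191-43076873, and RefSeq also lists a near-identical copy under the name CBSL, so the signal of this probe may include both. CTH, cystathionine gamma-lyase, which takes the next step to cysteine, read 7.71 and 7.62 in DMSO and 10.15 and 9.88 under lovastatin, 5.09-fold higher (2.35 ± 0.14, adjusted p = 6.9e-06), and its other 2 probes rose by 2.10 ± 0.33 and 2.02 ± 0.26. Both enzymes of the route from homocysteine to cysteine were thus higher on both treated arrays.

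The 2 proline enzymes moved in opposite directions. PYCR1, which takes the last step of proline synthesis in mitochondria, read 8.92 and 8.88 in DMSO and 9.83 and 9.84 under lovastatin, a rise of 0.94 ± 0.11 (adjusted p = 2.1e-04). ALDH18A1, which takes the first steps from glutamate, read 10.15 and 10.30 in DMSO and 9.16 and 9.34 under lovastatin. Its treated arrays were both about 1 unit below the controls, 1.97-fold lower (-0.98 ± 0.13, adjusted p = 3.3e-04).

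Among the 8 tested transporters 5 rose and none fell in SKOV3, 62.5% higher against 26.6% of all genes. Their median change was 0.91, and placing SLC1A4 at its bound does not change this median. SLC38A2, also called SNAT2, which carries glutamine, alanine and other small neutral amino acids with sodium, read 10.58 and 10.05 in DMSO and 12.74 and 12.23 under lovastatin. The replicate arrays lay about 0.5 log2 units apart in each group and the groups did not overlap, a rise of 2.17 ± 0.21 or 4.51-fold (adjusted p = 7.2e-05). SLC38A1, its relative SNAT1, read 9.31 and 9.24 in DMSO and 10.88 and 10.71 under lovastatin, a rise of 1.52 ± 0.12 (adjusted p = 2.1e-05), with 0.91 ± 0.17 at its dimmer second probe.

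SLC1A5, also called ASCT2, a glutamine and neutral amino acid exchanger, read 8.70 and 8.86 in DMSO and 10.13 and 9.77 under lovastatin, a rise of 1.17 ± 0.15 (adjusted p = 2.8e-04). Its relative SLC1A4, an exchanger of alanine, serine and cysteine, was not detected on either SKOV3 DMSO array and was detected on both lovastatin arrays (6.94 and 6.62). It was at least 2.54-fold higher under lovastatin (adjusted p = 4.8e-05). This bound sets the treated mean against the control arrays at their lowest detected signal, or at the probe's own signal where that was higher. The probe passed the filter through the SKOV3 lovastatin arrays alone, so this p-value is not independent of the filter and is no support. SLC1A4 stays in the counts of genes that rose and of differences. SLC3A2, the heavy chain that brings several exchangers to the membrane, rose by 0.65 ± 0.13 (adjusted p = 0.0030). Of its light chain partners, SLC7A5, also called LAT1, which carries leucine and other large neutral amino acids, changed by 0.14 ± 0.15, and SLC7A11, also called xCT, the cystine-glutamate exchanger, by -0.15 ± 0.13. The cationic transporter SLC7A1 changed by -0.21 ± 0.16, and none of these 3 was called.

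Set beside the promoter windows printed above, 10 of the 19 genes with a window that rose in SKOV3 held the searched core (52.6%), as did 0 of the 6 that fell and 2 of the 5 that were not called. Over all tested genes with a window, 3.27% of those called higher in SKOV3 held it, 2.52% of those called lower and 2.38% of the rest. The limit given above for the choice of list and motif holds here too. CBS, CTH, PHGDH, SARS1, WARS1 and SLC38A2 rose without a match in their windows, and NARS1 and SLC7A1 had a match and were not called. That these letters are absent from a window says nothing of sequence elsewhere in the gene.

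The second comparison asked the same question in OVCAR5. There 2 of the 37 genes rose and 5 fell, so that 18.9% were called against 22.8% of all tested genes; 5.41% were higher against 13.5% of all genes, and 13.5% lower against 9.29%. The median change was -0.11, with a range from -0.96 to 1.92, against a median of 0.013 over all genes. Both lovastatin arrays lay above both DMSO arrays for 9 genes and below them for 19, with 9 overlapping, while 67% of all genes did not overlap. The share called was thus near that of all genes. With median scaling of the arrays in place of quantile normalization, 76.2% of the calls over all genes were higher in place of 59.3%, and 2 of the 37 genes were called higher and 4 lower.

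SLC38A2 was the one gene of the list called higher in both lines. It read 9.06 and 9.01 in OVCAR5 DMSO and 10.99 and 10.91 under lovastatin, 3.78-fold higher (1.92 ± 0.21, adjusted p = 6.3e-04). SLC7A11 read 8.07 and 7.86 in DMSO and 8.72 on both treated arrays, 1.69-fold higher (0.75 ± 0.13, adjusted p = 0.0046). SLC7A5 went the other way, from 12.13 and 12.17 to 11.71 and 11.40 (-0.60 ± 0.15, adjusted p = 0.022), a call that was lost when either OVCAR5 DMSO array or OVCAR5 lovastatin replicate 2 was left out (adjusted p = 0.082 to 0.14). The heavy chain SLC3A2 was not called at its brightest probe (0.39 ± 0.13, adjusted p = 0.055), while its second probe rose by 0.95 ± 0.13 (adjusted p = 0.0023 over all kept probes). SLC1A4 was not detected on any of the 4 OVCAR5 arrays.

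No synthetase rose in OVCAR5, beside 13.5% of all genes, and 2 of 18 fell (11.1% against 9.29%, near the share of all genes). FARSA, the phenylalanyl subunit, read 9.07 and 9.01 in DMSO and 8.15 and 8.01 under lovastatin, 1.95-fold lower (-0.96 ± 0.12, adjusted p = 9.6e-04). IARS1 read 10.48 and 10.60 in DMSO and 10.12 on both treated arrays (-0.42 ± 0.12, adjusted p = 0.037), and its call was lost under 8 of 17 alternative settings (adjusted p up to 0.20). FARSB was not called at its brightest probe (-0.10 ± 0.13). Its dim second probe read -0.84 ± 0.13 (adjusted p = 0.0039 over all kept probes). That probe was detected on only 2 arrays of the series, so this is not a measured size. The 4 synthetases that rose most in SKOV3 changed in OVCAR5 by 0.32 ± 0.14 (WARS1), 0.04 ± 0.17 (GARS1), 0.02 ± 0.12 (SARS1) and 0.27 ± 0.12 (AARS1), and none was called.

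Of the enzymes, PSAT1 and ALDH18A1 fell in OVCAR5. PSAT1 read 10.16 and 10.28 in DMSO and 9.41 and 9.40 under lovastatin, 1.76-fold lower (-0.81 ± 0.12, adjusted p = 0.0021). ALDH18A1 read 9.06 and 8.98 in DMSO and 8.37 and 8.45 under lovastatin (-0.61 ± 0.13, adjusted p = 0.010), a call lost without OVCAR5 DMSO replicate 1 or OVCAR5 lovastatin replicate 1 (adjusted p = 0.071 and 0.072). ASNS, at 9.17 and 9.09 in DMSO and 9.32 and 9.17 under lovastatin, had arrays of the groups that met at 9.17 and changed by 0.11 ± 0.13 (adjusted p = 0.60). PSPH was not called at its brightest probe (-0.31 ± 0.17), while its second probe read -0.73 ± 0.21 (adjusted p = 0.041 over all kept probes). CBS changed by 0.16 ± 0.12 and PHGDH by -0.20 ± 0.15, while CTH was detected on neither DMSO array (5.44 and 5.53) and on 1 of 2 treated ones (5.36 and 5.60).

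**Figure D2:**
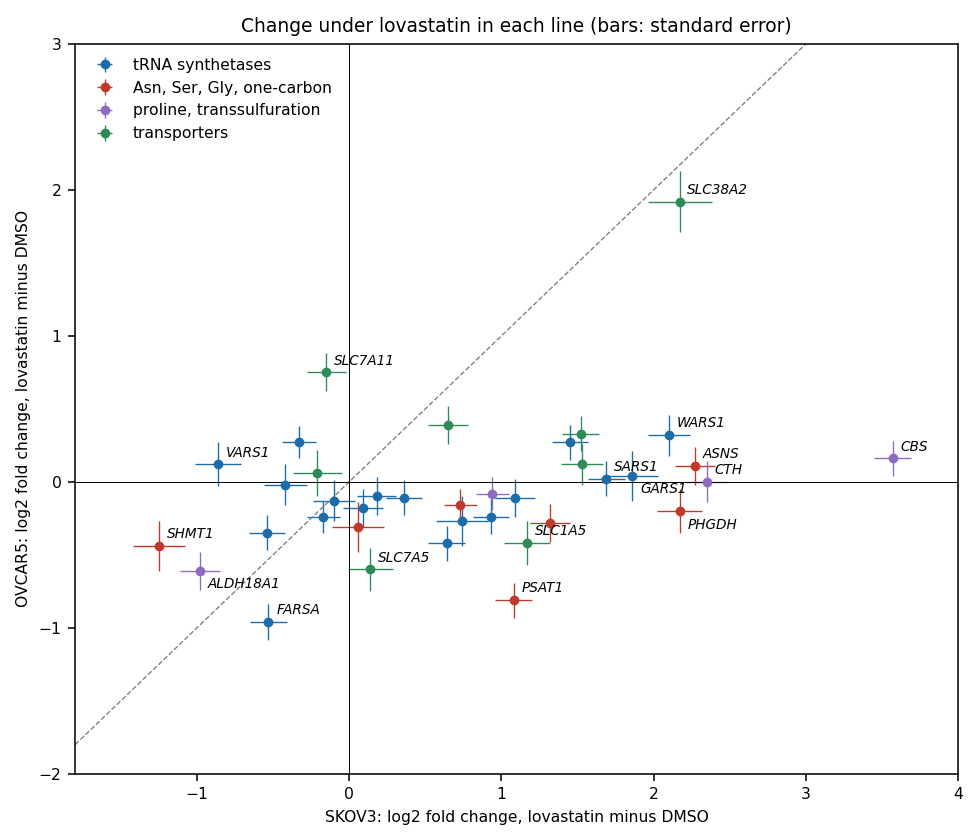
Log2 fold change under lovastatin in SKOV3 (x axis) and OVCAR5 (y axis) of the 37 tested genes, coloured by role, with bars of 1 standard error and a dashed line of equal change. SLC38A2 lies near the line of equal change, at 2.17 and 1.92, and CBS farthest from it, at 3.57 and 0.16.

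Taken by gene, 1 of the 37 was called higher in both lines (SLC38A2), 2 were called lower in both (FARSA and ALDH18A1), and 2 were called higher in SKOV3 and lower in OVCAR5 (IARS1 and PSAT1). A further 19 were called higher and 5 lower in SKOV3 alone, SLC7A11 and SLC7A5 were called in OVCAR5 alone, and 6 were called in neither line (FARSB, LARS1, NARS1, RARS1, PSPH and SLC7A1). The change had the same sign in both lines for 17 of the 37 (45.9%), against 66.9% of all tested genes. Across the 37 genes, which share arrays and are not independent, the changes in the lines correlated at r = 0.363 (Spearman 0.386), and across all genes at 0.481 (0.488).

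The third comparison tested whether the change itself differed between the lines, as SKOV3 minus OVCAR5. Of the 37 genes 20 had a more positive change in SKOV3 and 4 a more negative one, 64.9% against 27.3% of all tested genes; 54.1% were more positive against 12.8% of all genes, and 10.8% more negative against 14.5%. The median difference was 0.89, against -0.016 over all genes. Under median scaling 34.2% of the calls over all genes were more positive in place of 47.0%, and 18 of the 37 genes were more positive and 4 more negative.

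CBS differed most, by 3.42 ± 0.17 (adjusted p = 3.4e-05), with a rise from 7.32 and 7.36 to 10.83 and 10.99 in SKOV3 beside 7.99 and 7.92 to 8.15 and 8.07 in OVCAR5. PHGDH differed by 2.37 ± 0.21 and, in OVCAR5, read 9.85 and 9.74 in DMSO and 9.64 and 9.54 under lovastatin. ASNS differed by 2.16 ± 0.19 and PSAT1, with changes of opposite sign, by 1.89 ± 0.17. GARS1 differed by 1.83 ± 0.23 and read 12.42 and 12.47 in OVCAR5 DMSO and 12.33 and 12.64 under lovastatin. These 5 differences, each with an adjusted p under 0.001, were larger than any gap between arrays of one group. CTH and SLC1A4 were also called, but CTH was detected on 1 and SLC1A4 on none of the 4 OVCAR5 arrays. Their change in OVCAR5 was therefore not measured, and neither difference is a measured size.

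By role, the difference was more positive in SKOV3 for 8 of 18 synthetases and more negative for 2 (VARS1 and QARS1), and for 5 of 7 and 1 of 7 (SHMT1) of the asparagine, serine, glycine and one-carbon enzymes. It was more positive for 3 of 4 proline and transsulfuration enzymes and for 4 of 8 transporters, and more negative for 1 transporter, SLC7A11 (-0.91 ± 0.18, adjusted p = 0.0081). Over all tested genes 12.8% were more positive and 14.5% more negative. For SLC38A2 the difference was 0.26 ± 0.30 (adjusted p = 0.56), which is within its standard error. SLC3A2 (0.25, adjusted p = 0.32) and ALDH18A1 (-0.37, adjusted p = 0.16) did not differ past the threshold either. The differences of QARS1, TARS1, SHMT1 and SLC7A5 each lost their call when any of at least 3 arrays was left out in turn (adjusted p up to 0.089, 0.067, 0.13 and 0.11).

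The lines already differed without drug. In DMSO 10 of the 37 genes were higher and 15 lower in SKOV3 than in OVCAR5, 67.6% against 61.9% of all tested genes; 27% were higher against 32.3%, and 40.5% lower against 29.6%. The median difference was -0.10, and the arrays of the lines did not overlap for 34 of the 37 genes, 15 above and 19 below, beside 83.5% of all genes. Under median scaling 60.8% of the calls over all genes were higher in SKOV3 in place of 52.1%, and 10 of the 37 were higher and 12 lower. These values share the SKOV3 DMSO and OVCAR5 DMSO arrays with the comparisons above.

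LARS1, the leucyl synthetase, was 3.85-fold lower in SKOV3 (9.28 and 9.25 against 11.17 and 11.25 in OVCAR5). PSPH was 3.48-fold lower (7.60 and 7.20 against 9.36 and 9.03), and the probe may also read its annotated pseudogene PSPHP1. SLC1A5 was 3.21-fold lower, SLC7A11 2.99-fold, GARS1 2.98-fold, PHGDH 2.78-fold, HARS1 2.39-fold and SLC38A1 2.15-fold. CTH, not detected in OVCAR5 DMSO, was at least 4.35-fold higher in SKOV3 (adjusted p = 3.7e-06). Its probe passed the filter through the SKOV3 arrays, so this p-value is not independent of the filter and is no support. SLC38A2 was 2.43-fold higher in SKOV3, NARS1 2.41-fold and ALDH18A1 2.31-fold. ASNS did not differ past the threshold (0.08 ± 0.13, adjusted p = 0.63). SLC1A4 counts among the genes called higher although neither line detected it in DMSO, so no fold is given. FARSB was equal in both lines at its brightest probe (0.00 ± 0.13), while a dim second probe, detected on 2 of 8 arrays, read -1.31 ± 0.13.

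Genes next to these in the same pathways were read from further lists. Of 16 tested synthetases that serve mitochondria only, none rose and 12 fell in SKOV3 (75% lower against 23.9% of all genes, median -0.49). In OVCAR5 none rose and 3 fell (18.8% lower against 9.29% of all genes, median -0.17). Cytosolic and mitochondrial enzymes were paired by gene symbol, which gave pairs for 13 amino acids. The phenylalanyl pair was set by hand with FARSA as the cytosolic member, and FARSB was left out. In SKOV3 the mitochondrial phenylalanyl enzyme changed by -0.46, above FARSA (-0.53) and below FARSB (0.18), so this choice bears on the count. EPRS1, which charges glutamate and proline, was left unpaired, although mitochondrial enzymes for both were tested. The cytosolic change lay above the mitochondrial one in 10 pairs in SKOV3 (median gap 0.89, range -0.24 to 2.82) and in 7 pairs in OVCAR5 (median gap 0.06). AARS2, the mitochondrial alanyl enzyme, read 8.42 on both SKOV3 DMSO arrays and 7.08 and 7.07 under lovastatin (-1.34 ± 0.11, adjusted p = 3.2e-05), where AARS1 rose by 1.45. SARS2 fell by 1.01 where SARS1 rose by 1.69, and MARS2 by 0.65 where MARS1 rose by 1.09. LARS2 fell by 1.06, and LARS1 was not called (-0.17 ± 0.11). No test compared the members of a pair.

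**Figure D3:**
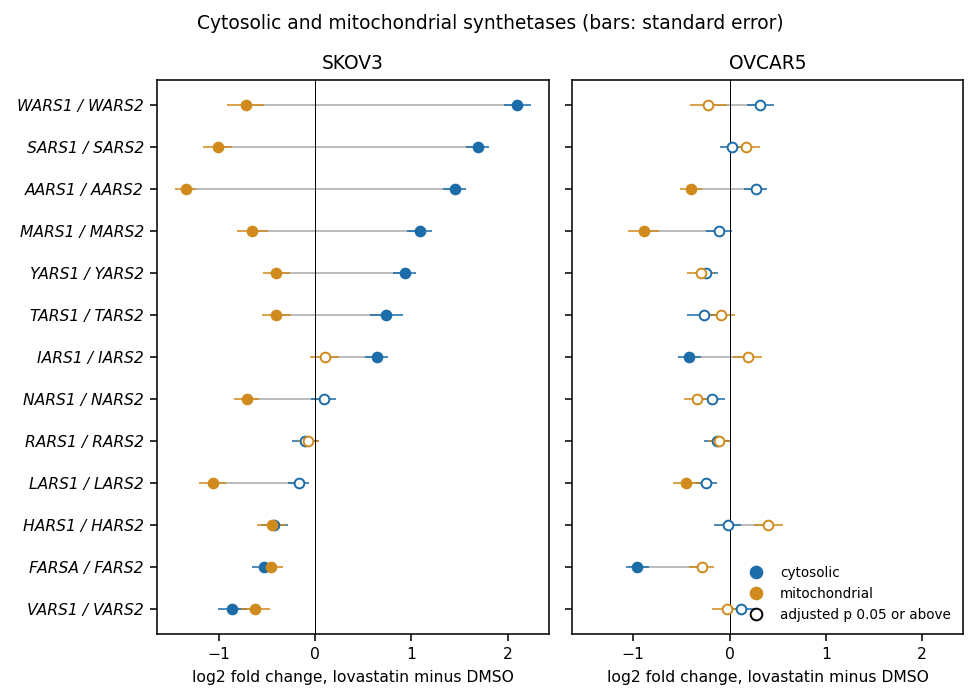
Log2 fold change under lovastatin (x axis) of the cytosolic (blue) and mitochondrial (amber) synthetase of each of 13 amino acids, in SKOV3 on the left and OVCAR5 on the right. Enzymes were paired by gene symbol, apart from the phenylalanyl pair, which was set by hand with FARSA. Bars show 1 standard error, and points are open where the adjusted p was 0.05 or above. In SKOV3 the blue point lies to the right in 10 of 13 pairs, from -0.24 to 2.82 apart over all pairs, and in OVCAR5 in 7.

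Of 21 other tested genes of amino acid metabolism, 4 rose and 9 fell in SKOV3 (61.9% called against 50.5% of all genes), and 2 rose and 3 fell in OVCAR5 (23.8% against 22.8%, near the share of all genes). TYMS, thymidylate synthase, which uses one-carbon units for DNA synthesis, fell by 3.10 in SKOV3, from 12.37 and 12.22 to 9.22 and 9.17 (adjusted p = 1.2e-06), and by 0.43 in OVCAR5. MTHFD1, the cytosolic folate enzyme, fell by 1.47 and by 0.67, where the mitochondrial MTHFD2 rose in SKOV3. ASRGL1, an asparaginase-like enzyme, was lost from detection in SKOV3, at least 3.84-fold lower (adjusted p = 1.1e-05). GCLC, which takes the first step from cysteine to glutathione, rose by 1.10 ± 0.15 in SKOV3 and 1.67 ± 0.15 in OVCAR5.

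Of 15 other tested transporters, 2 rose and 4 fell in each line, 40% called against 50.5% of all genes in SKOV3 and 22.8% in OVCAR5. SLC43A2, which carries large neutral amino acids, was detected in SKOV3 DMSO and not under lovastatin (at least 1.18-fold lower, adjusted p = 0.0031), and in OVCAR5 it was detected under lovastatin and not in DMSO (at least 2.19-fold higher, adjusted p = 0.0016). In OVCAR5 the cationic transporter SLC7A2 fell by 1.27 and the taurine transporter SLC6A6 rose by 1.01, and neither was detected in SKOV3. SLC1A3, a glutamate transporter, was lower in OVCAR5 (-1.14 ± 0.23) and was also not detected in SKOV3. Only 1 of its 2 treated OVCAR5 arrays detected it (5.93 and 5.21), so this is not a measured size.

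Of 14 tested genes listed as regulators of the amino acid response, 12 rose and 1 fell in SKOV3 (92.9% called against 50.5% of all genes, median 2.16). In OVCAR5 5 of them rose and none fell (35.7% against 22.8%, median 0.30). The list mixes factors that control this response with genes induced in it. It was chosen with earlier results of these data known, so these shares are no independent support. The mRNA of ATF4 read 12.86 and 12.82 in SKOV3 DMSO and 14.02 and 14.06 under lovastatin (1.20 ± 0.11, adjusted p = 5.3e-05), and 12.08 and 12.10 against 12.33 and 12.37 in OVCAR5 (0.26 ± 0.11, adjusted p = 0.12). TRIB3, a pseudokinase that feeds back on ATF4, read 10.10 and 10.04 in OVCAR5 DMSO and 11.28 and 10.93 under lovastatin (1.04 ± 0.16, adjusted p = 0.0028), beside a rise of 3.88 ± 0.16 in SKOV3. DDIT3, the factor CHOP, rose by 1.58 ± 0.15 in OVCAR5. TRIB3 and DDIT3 thus rose in OVCAR5, where ASNS, CBS and PHGDH were not called. ATF4 is controlled at translation, and its protein was not measured.

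**Figure D4:**
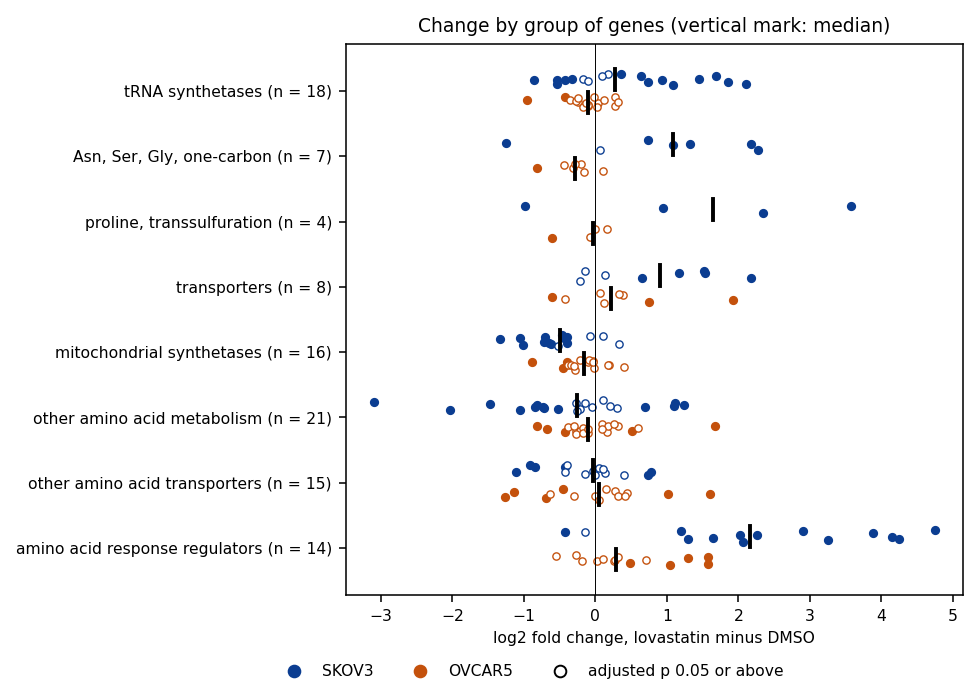
Log2 fold change under lovastatin (x axis) of the tested genes of 8 groups (y axis, with the number of genes tested), in SKOV3 (blue, upper) and OVCAR5 (orange, lower), with open points where the adjusted p was 0.05 or above and a vertical mark at the median. In SKOV3 the medians run from -0.49 for the mitochondrial synthetases to 2.16 for the genes listed as regulators. In OVCAR5 they run from -0.28 for the asparagine, serine, glycine and one-carbon enzymes to 0.30 for the genes listed as regulators.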

How the data were processed

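RNA of SKOV3 and OVCAR5 cells was measured on 8 arrays, 2 per line and treatment. Raw mean bead intensities per probe were deposited by the authors; per the file headers they had been neither normalized nor corrected for background. Beside each intensity the authors deposited a detection p-value. Their log2 values of the same arrays stand in another deposited table, made with limma per the submitters' processing notes, version and settings not given. Compared with neqc run on each line alone, 99.997% of its SKOV3 and 99.987% of its OVCAR5 values lay within 0.01. It was therefore taken to be log2, uncentred and quantile-normalized per line after background correction (array medians 4.81 and 4.74, 1 value missing).

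All 8 arrays were normalized together from the intensities by neqc (limma 3.58.1, R 4.3.3), which corrects background by a normal-exponential model using the detection p-values, equalizes quantiles and takes log2 after adding an offset of 16. A probe was kept if the platform annotation gave it 1 gene symbol and 2 or more arrays detected it at p under 0.01 (14851 probes). The brightest kept probe stood for its gene, which left 11218 of 20046 genes. Of 30113 probes with 1 symbol 30074 matched a RefSeq record, which gave the current symbol; 8 probes had several and 17202 were unnamed here. Values of second probes come from the same model fitted over all kept probes.

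The model held a mean for each of the 4 groups, all 8 arrays sharing one spread, and limma's moderated test gave 4 contrasts. Its p-values were adjusted by Benjamini-Hochberg over all tested genes. The steps were tested on simulated data. The list of 39 genes and the other lists were chosen with earlier results of these data known. Values per array are given for up to 4 called genes per role and line with the largest change and for the 6 largest differences; from the other lists up to 4 genes with the largest change in either line were eligible, with ATF4, DDIT3 and TRIB3. Values per array of LARS1, PSPH and the genes of the other lists were added after they were seen. The deviations of arrays with the same replicate number correlated at 0.227 in SKOV3 and -0.0265 in OVCAR5, so the numbers were not taken to pair the arrays. Scan and slide records were not analysed here. Figures were drawn with matplotlib 3.10.9.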

Additional observations from a re-analysis of the deposited data

Results flagged for a closer look

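The following changes under lovastatin differed between the lines by limma's test of the difference (SKOV3 minus OVCAR5, log2 scale, adjusted p under 0.05, n = 2 arrays per group), which is what singled them out. Among the 37 tested genes these were CBS (3.42), PHGDH (2.37), CTH (2.35), ASNS (2.16), PSAT1 (1.89), GARS1 (1.83), WARS1 (1.78), SARS1 (1.67), MTHFD2 (1.60), SLC1A5 (1.58), SLC1A4 (1.42), MARS1 (1.21), AARS1 (1.19), SLC38A1 (1.19), YARS1 (1.17), IARS1 (1.06), PYCR1 (1.02), TARS1 (1.01), SHMT2 (0.89) and SLC7A5 (0.74). More negative in SKOV3 were QARS1 (-0.60), SHMT1 (-0.81), SLC7A11 (-0.91) and VARS1 (-0.99). The value of SLC1A4 depends on arrays that did not detect it in SKOV3 DMSO and OVCAR5, and that of CTH on OVCAR5 arrays of which 1 of 4 detected it, so neither is a measured size.

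Among the named genes of the other lists the differences were NUPR1 (4.65), ATF3 (3.87), TRIB3 (2.84), DDIT3 (2.66), SLC1A3 (1.10) and ATF4 (0.94), and, more negative in SKOV3, MTHFD1 (-0.79), AARS2 (-0.94), SARS2 (-1.18), ASRGL1 (-1.73), TYMS (-2.67) and SLC43A2 (-2.71). NUPR1, a stress-inducible chromatin protein, was detected on 1 of 4 OVCAR5 arrays, SLC1A3 on no SKOV3 array, ASRGL1 on no SKOV3 lovastatin array, and SLC43A2 on no array of SKOV3 lovastatin or OVCAR5 DMSO. The differences of NUPR1, SLC1A3, ASRGL1 and SLC43A2 are therefore not measured sizes.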

How the results depend on the processing

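Of the 29 genes of the list called in SKOV3, 25 were called under every alternative run (20 higher, 5 lower); the others were EPRS1, HARS1, QARS1 and TARS1. Of the 7 called in OVCAR5 this held for FARSA, PSAT1, SLC38A2 and SLC7A11, of the 24 differences for 20, and of the 25 genes called between the lines in DMSO for 19. In OVCAR5 the genes called higher went from 2 to 5 without background correction and with an intensity trend, and those called lower from 5 to 8 when only the 4 OVCAR5 arrays were fitted; the cause was not tested. Leaving out 1 array at a time gave 20 to 22 higher and 5 to 7 lower in SKOV3, 2 to 4 higher and 2 to 8 lower in OVCAR5, 18 to 21 and 2 to 4 for the difference, and 9 to 10 and 11 to 16 between the lines. The 8 in OVCAR5 were reached without either SKOV3 lovastatin array and the 2 without OVCAR5 DMSO replicate 1; leaving out either SKOV3 DMSO array or any OVCAR5 array left 2 more negative differences. With the replicate block the counts were 22 and 6 in SKOV3, 2 and 4 in OVCAR5, 20 and 3 for the difference and 10 and 14 between the lines. No called value changed sign; of the uncalled values near 0 that did, 1 was called with the other sign, FARSB between the lines in DMSO (-0.654 for the mean of its kept probes, 1 of which is dim). Median scaling moved the median of all genes to 0.111 in OVCAR5, to -0.142 for the difference and to 0.153 between the lines. Without the detection filter 38 of the genes were tested among 20046, with 22 higher and 7 lower in SKOV3 and 2 and 5 in OVCAR5. Signal over background limits CTH in OVCAR5 and SLC1A4 in every group but SKOV3 lovastatin.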
